A study of Saccharomyces cerevisiae with 2 samples.

Results

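Nucleosomes that sit inside evenly spaced arrays were described on chromosome III of the budding yeast Saccharomyces cerevisiae. The members were selected on the measured centres of the total mononucleosome library. In its single-end list of predicted positions, sorted by centre, a member is a centre whose distances to both neighbours are 150 to 180 bp. This rule takes 514 of the 1881 centres, or 27.3% (95% Wilson interval 25.4 to 29.4%). Consecutive members were joined into runs, and the non-member at either side of a run is called its run end.

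The series has 2 samples from strain yFR212, each a single library. It is a MATa strain of the W303 laboratory background, GAL+ and psi+, with the marker alleles ade2-1 (adenine), trp1-1 (tryptophan), ura3-1 (uracil), his3-11,15 (histidine) and can1-100 (canavanine resistance), and a leucine marker, leu2, with the paired mutations 3 and 112. HTZ1, the gene for histone H2A.Z, is tagged with 3 Myc epitopes in both samples. Cells grown in YPD, a rich medium, were taken at an OD600 of 0.8 and fixed with formaldehyde (1%). Their chromatin was then cut by micrococcal nuclease (MNase), an enzyme that trims the linker DNA, over 20 minutes at 37 °C. The first library is the DNA of all mononucleosomes, called total here. The other holds DNA of mononucleosomes pulled down with an anti-Myc antibody, called H2A.Z here, and a centre in its list need not be a nucleosome that carries the variant.

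Nucleosomes wrap DNA around a core of histones, and short linkers join neighbouring cores. In yeast genes, arrays of nucleosomes are typically laid out from a nucleosome-depleted promoter, with the +1 nucleosome at its downstream border and further nucleosomes following at even spacing over the gene body. Chromatin remodelling enzymes such as ISW1 and CHD1 set that spacing. The SWR1 complex exchanges H2A for H2A.Z, mostly in nucleosomes that border the depleted promoters.

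With a single library per group, differences between the libraries could not be set against replicate spread, and p-values were not computed. Intervals are 95% intervals over positions, which are not independent replicates, and they cover counting error only. Centres, peak distances, fuzziness and scores of 1 list come from the same model fit, so the values of the total list set beside membership are descriptions. The authors' score has no stated scale. It is given here as a percentile within its own list, from 0 for the lowest to 100 for the highest score. The lists hold no read counts, so depth is unknown.

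Regular distances came in succession along the chromosome. Of the 1880 distances between neighbouring total centres, 894 were 150 to 180 bp, or 47.6%. After such a distance the next one was also regular in 57.5% of cases (514 of 894, 54.2 to 60.7%), against 38.6% (380 of 985, 35.6 to 41.7%) after any other distance. The members formed 202 runs, of which 72 held 1 member and 53 held 2. Another 77 runs held 3 or more members and together contained 336 members, or 65.4% of the total. In 32 runs there were 5 or more members, and the longest had 11. Including their ends, the arrays covered 118079 bp, which is 37.4% of the stretch between the first and the last centre, with a median length of 498 bp.

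**Figure D1:**
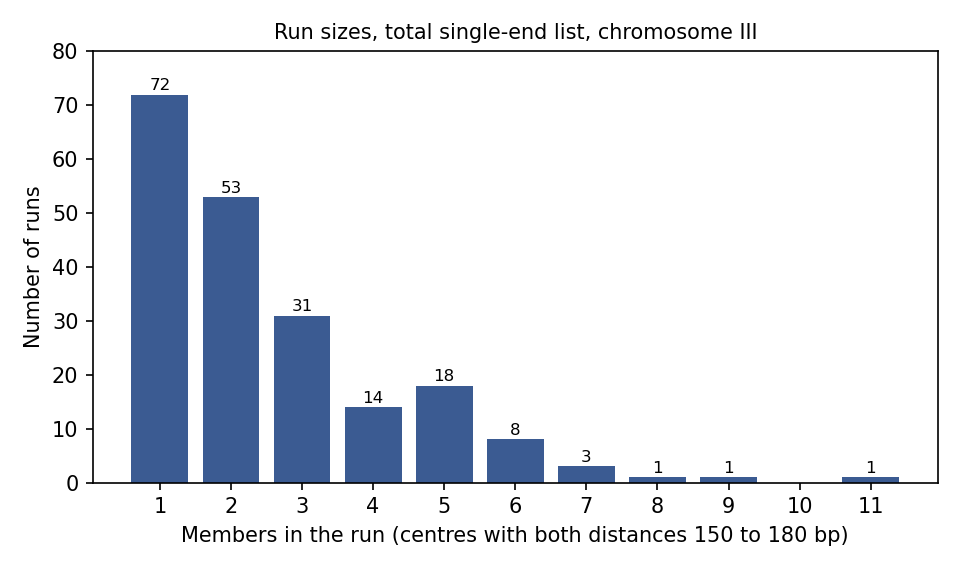
Number of runs (vertical axis) by the number of members in the run (horizontal axis) in the total single-end list. Runs of 1 and 2 members are the most frequent, with 72 and 53 runs, and a single run reaches 11.

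The repeat length of the arrays is bounded by the rule, and its values are a description. The 716 distances in all arrays had a mean of 165 bp with an SD of 7.55 bp. The mean was 164.9 bp in runs of 1 member (144 distances) and 165.5 bp in runs of 5 or more (219 distances). Among the 77 runs of 3 or more members, the mean distance of a run went from 154.9 to 172 bp with a median of 164.8 bp. The SD between run means was 3.78 bp. The median SD of single distances within a run was 7.33 bp. Centres of these runs departed from an even ladder fitted to each run by a median of 4.21 bp (root mean square, range 1.70 to 8.07 bp). Consecutive distances of a run were nearly unrelated, with Pearson's r of -0.00642 over 514 consecutive pairs that share a centre.

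A distance within 2 bp of a bound occurred in 66 of the 514 members. Just inside the lower bound lay the centre at 94913, with distances of 150.4 and 168.9 bp, a total score percentile of 93.6 and a forward SD of 20.2 bp. Just outside it lay the centre at 208817, with 149.9 and 162.8 bp, a percentile of 39.6 and an SD of 21.3 bp. At the upper bound the nearest member, at 243476, had distances of 179.8 and 173.1 bp, a percentile of 69.4 and an SD of 38.8 bp. The nearest non-member, at 7633, had 180.1 and 159.6 bp, a percentile of 6.70 and an SD of 32.1 bp. All coordinates are centres on chromosome III in the build sacCer2, which the submitters' processing notes name.

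In the single-end list of total chromatin the array nucleosomes were more sharply placed than the rest. With the rule applied to the paired-end list instead, which takes other centres, the forward SD of members minus others was -0.629 bp. Its bounds include 0 (-1.63 to 0.452 bp), and the value was -4.27 bp in the single-end list. Paired-end partners of the single-end members had a median forward SD of 23.9 bp (23.4 to 24.5 bp). Those of the other rows had 26.2 bp (25.8 to 26.5 bp). In the single-end list, the SD of forward read positions around the centre, a measure of fuzziness, had a median of 27.0 bp in members (26.2 to 27.6 bp). It was 30.4 bp (29.6 to 31.1 bp) in the 760 centres with a single regular distance and 32.1 bp (31.5 to 32.6 bp) in the 607 with none. The standard error of the centre had medians of 1.60, 2.16 and 3.07 bp in these classes. Fuzziness also moved with score. In the highest 25% of total scores members and all other rows had medians of 23.4 and 23.5 bp. In the 25% below, they had 28.5 (27.6 to 29.6 bp) and 30.0 bp (29.4 to 30.9 bp), in the next 32.7 and 33.5 bp, and in the lowest 35.1 and 33.7 bp. The intervals of members and others overlapped in each of the 4 ranges of score, but only narrowly in the range below the highest. Overlap of intervals does not show that a difference is absent, and score and fuzziness come from the same fit. A difference in fuzziness at a matched score was not tested.

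Read peaks lay farther apart at array nucleosomes. The spacing of the forward and the reverse read peak of a nucleosome, which follows the length of DNA protected from MNase, had a median of 130.8 bp in members (129.7 to 131.2 bp), 127.7 bp beside a single regular distance and 125.4 bp beside none. When the list was cut into 4 equal ranges of total score, members had medians of 131, 130.3, 130 and 131.1 bp from the lowest to the highest range and the others 125, 126.6, 127.4 and 127.9 bp. The intervals of members and others lay apart in the lowest range (128.3 to 135.6 bp against 123.4 to 126.1 bp) and in the highest (129.6 to 132 bp against 127.2 to 129.1 bp). They overlapped narrowly in the 2 ranges between. At the matched centres of the H2A.Z library, which the rule did not use, the median was 129.7 bp for partners of members (128.8 to 130.4 bp) and 126.7 bp for partners of other rows (126.4 to 127.4 bp). Partners of members were also somewhat less fuzzy in that library, with a median forward SD of 29.2 bp (28.7 to 29.6 bp) against 30.7 bp (30.2 to 31.0 bp).

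**Figure D2:**
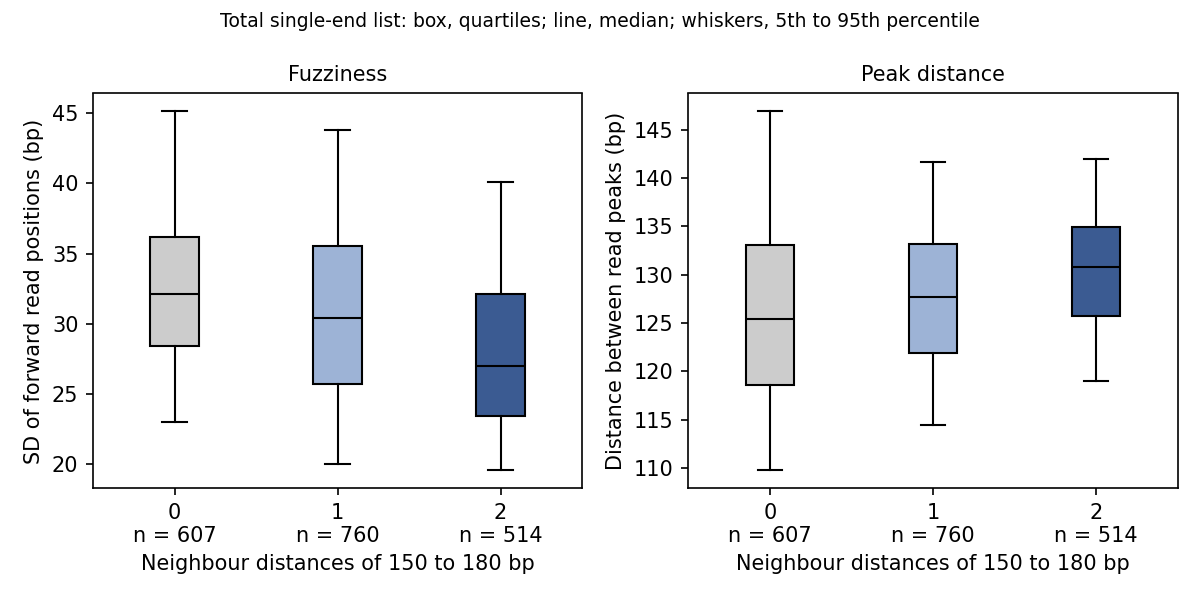
Forward SD (left) and distance between read peaks (right), both in bp, of total centres with 0, 1 or 2 neighbour distances of 150 to 180 bp, the last being the members. Boxes show quartiles with the median as a line and whiskers run from the 5th to the 95th percentile; the median SD is lowest and the median peak distance highest in the members.

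Array nucleosomes scored high in total chromatin. Their median total score percentile was 69.4 (66.9 to 71.9), against 41.6 (39.2 to 44.1) in all other rows, 54.1 beside a single regular distance and 30.1 beside none. Members were scarce at the bottom of the list, where 50 of them, or 9.73% (7.46 to 12.6%), fell in the lowest 25% of scores, against 30.7% (28.3 to 33.2%) of the others. At the very top they were less distinct, with 12.8% of members (10.2 to 16.0%) and 9.0% of the others (7.59 to 10.6%) in the top 10%. The median percentile was 60.8 (47.3 to 71.0) for members of single-member runs and 74.6 (70.3 to 78.2) for those in runs of 5 or more, with intervals that overlap.

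The highest-scoring member, ranked 2 of 1881, had its centre at 136493 in a run of 2 members and a score of 8.77. Its H2A.Z partner lay 2.73 bp away and ranked 368 of 1859. The second, at 46897, ranked 3 in total chromatin and closed a run of 6 members. Its partner, 1.70 bp away, ranked 2 in the H2A.Z list, and its forward SD of 19.2 bp was matched by 8.62 bp there. The membership of 46897 rests on its distance to a weak run end on the right. That run end had a total percentile of 0.16, a standard error of 24.3 bp and no H2A.Z centre within 20 bp. The other members of the run also had no H2A.Z centre within 20 bp. The next members by score had centres at 106643, 96391 and 93657, all in runs of 5, with total ranks of 6, 13 and 19. Their H2A.Z partners ranked 271, 393 and 305. The partner of 96391 lay 18.5 bp away, near the matching limit, with a forward SD of 62.5 bp against 18.3 bp in total chromatin. Of these 5, the centre at 46897 alone had an H2A.Z percentile above 90.

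Most array centres of total chromatin had a counterpart in the H2A.Z library. Of the 514 members, 473 had an H2A.Z single-end centre within 20 bp, or 92.02% (89.4 to 94.1%), against 81.4% of all total rows and 77.4% (75.1 to 79.5%) of the other rows. Matched centres were a median of 3.43 bp apart for members and 4.81 bp for the others. Match followed score as well. In the highest 25% of total scores 95.3% of members and 96.1% of other rows were matched, whereas in the lowest 25% of scores 76.0% of 50 members (62.6 to 85.7%) and 58.1% of 420 others (53.3 to 62.7%) were. The 41 unmatched members had a median total percentile of 38.2, and for 30 of them the nearest H2A.Z centre lay within 40 bp.

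Most array distances were also regular between their H2A.Z partners. Of the 716 array distances, 580 joined centres whose H2A.Z partners were also direct neighbours. In the H2A.Z list 494 of these, or 85.2%, were 150 to 180 bp, against 51.4% of all 1270 distances with such partners. Over all 716 array distances, the unmatched and the interrupted included, the share was 69.0%. Counted in that way over the whole list, 653 of 1880 distances were regular between H2A.Z partners. Regular distances outside arrays gave 77.2% of 127 with partners that were direct neighbours, and irregular distances 10.8% of 563. Partner distances had a mean of 163.7 bp with an SD of 10.8 bp, against 165 bp and 7.60 bp for the same distances in total chromatin. A distance differed between the libraries by a median of 4.54 bp. Pearson's r between them was 0.683 over the 580 distances, as a description, since neighbouring distances share centres. Matching within 20 bp limits how far a distance can differ.

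The same spacing rule applied to the H2A.Z single-end list itself took 378 of 1859 centres, or 20.3% (18.6 to 22.2%), in 181 runs with at most 7 members. Of the total members, 297 had a partner that was a member in the H2A.Z list, or 57.8%, against 19.2% of all total rows and 4.75% of the other rows. Counted the other way, 78.6% of the 378 H2A.Z members (74.2 to 82.4%) lay at a total member. In the paired-end list of the total library, 461 members had a centre within 20 bp, or 89.7%, against 81.8% of all rows. There 244 members, or 47.5% (43.2 to 51.8%), had a partner that was itself a member, against 17.7% of all rows. A partner lies within 20 bp of a centre that the rule selected or left out. These contrasts in membership are therefore not separate from the rule. The rule took 346 of 2353 centres of that paired-end list, or 14.7%, so the change of list type within the total library lowered the share of members by more than the change of library did. A second paired-end centre within 73 bp, a possible alternative position, was about as frequent for members (124, or 24.1%) as for all rows (24.3%). In the H2A.Z paired-end list 81 members had such a second centre, or 15.8% (12.9 to 19.2%), against 21.3% of all rows.

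High H2A.Z scores were rare inside arrays, but the rule itself leaves out every row beside a distance over 180 bp. Beside a distance over 220 bp, 72 of 108 matched run ends had a partner in the top 10% of H2A.Z scores. Of the other matched rows beside such a distance, 51 of 159 did. The contrasts in top scores below are therefore not separate from the rule. Among matched rows, 15 of 473 members, or 3.17% (1.93 to 5.17%), had a partner in the top 10% of H2A.Z scores, against 11.8% of all matched rows and 15.7% (13.6 to 18.0%) of the 1058 matched other rows. Within the highest 25% of total scores the contrast was wider, with 12 of 202 members, or 5.94% (3.43 to 10.1%), against 123 of 249 other rows, or 49.4% (43.2 to 55.6%). The median H2A.Z percentile did not show this, being 58.1 (54.9 to 60.8) for members and 54.4 (51.6 to 57.6) for the others. That small difference in medians changed sign with the processing, to -8.94 in the upper 75% of scores. Members had partners ranked lower in H2A.Z than in total chromatin by a median of 10.6 percentile points (H2A.Z minus total -10.6, -13.2 to -8.62), and 132 of 473, or 27.9%, had the higher percentile in H2A.Z, against 46.6% of all matched rows. Such a difference of ranks depends on the total percentile, which was higher in members. By 25% ranges of total score, from the lowest up, members had median H2A.Z percentiles of 29.3, 35.3, 52.8 and 70.1. The others had 21.6, 41.55, 61.8 and 89.9, with intervals apart from those of members only in the highest range.

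Run ends beside a wide outer distance, by contrast, held many of the strongest H2A.Z positions. Of the 404 run ends 350 were matched, and 91 of these, or 26.0% (21.7 to 30.8%), had a partner in the top 10% of H2A.Z scores. The share was 11.8% of all 1531 matched rows. It was 20.4% (17.5 to 23.7%) of the 652 matched rows with a single regular distance, which include the run ends. Beside an outer distance over 220 bp, 72 of 108 matched run ends had such a partner. Beside one over 180 to 220 bp 12 of 111 did, and beside one under 150 bp 7 of 131. The 91 run ends are among the 181 total rows with such a partner. Another 13 of the 15 such members were the outermost of their run, and 332 of all 514 members, or 64.6%, hold that place.

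Toward the middle of long runs H2A.Z score percentiles were lower than at the edge, and total percentiles were about level. In the 32 runs of 5 or more members, the median H2A.Z percentile was 84.1 at the run ends (66.9 to 92.7), 64.7 at the outermost members (55.1 to 74.8), 56.4 at the second (48.1 to 65.7) and 46.1 at the third and further in (38.6 to 54.3). The total percentiles of the same places were 68.7 (57.7 to 85.2), 74.4 (65.5 to 78.3), 77.4 (69.4 to 85.0) and 74.1 (65.8 to 81.3). The H2A.Z intervals of the run ends and of the third place lay apart, those of neighbouring places overlapped, and the total intervals of all 4 places overlapped. The paired-end lists, read at the same places, gave 87.2, 70.1, 63.0 and 52.0 for H2A.Z and 85.5, 77.9, 81.8 and 82.6 for total chromatin.

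**Figure D3:**
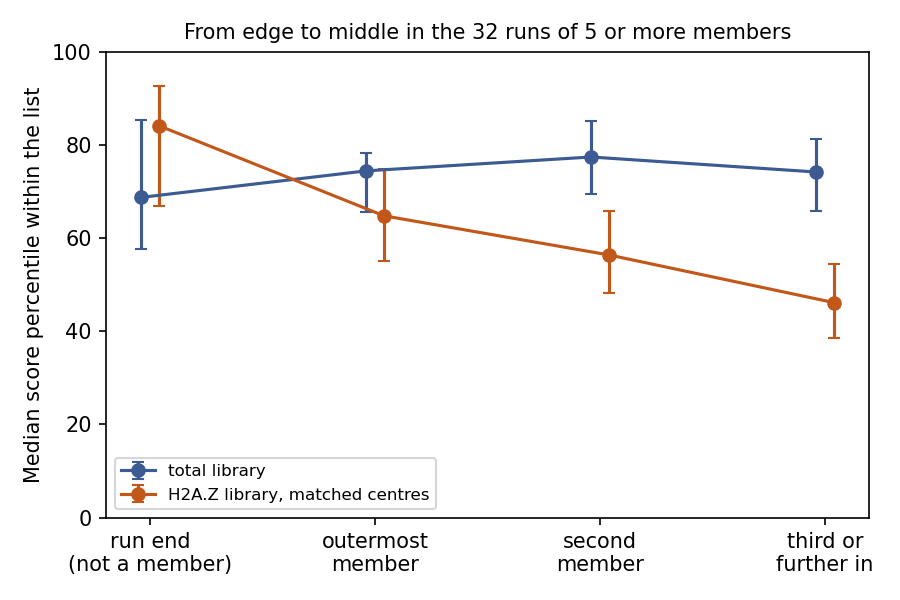
Median score percentile within each single-end list (vertical axis) by place in the 32 runs of 5 or more members (horizontal axis), with 95% order-statistic intervals over positions as bars. The H2A.Z medians go down from 84.1 at the run ends to 46.1 at the third member and beyond, and the total medians lie between 68.7 and 77.4.

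The outermost and the inner members alone differed less. Over the 77 runs of 3 or more members, the median H2A.Z percentile was 62.1 for outermost and 54.1 for inner members, a difference of -8.02 whose bounds include 0 (-18.2 to 0.70). The total percentiles were 68.3 and 73.5, a difference of 5.21 with bounds of -6.54 and 13.4. Compared run by run, the mean H2A.Z percentile was lower inside than at the outermost members in 48 of 73 runs and higher in 25. The mean total percentile was lower inside in 39 of 77 runs and higher in 38. Fuzziness and peak distance did not separate the places, with median forward SDs of 26.3 bp in outermost and 25.8 bp in inner members and median peak distances of 131 and 131.7 bp.

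What lay outside a run went with the H2A.Z score of its end. All 404 run ends had a measured outer distance, which was over 180 bp at 237 ends, or 58.7%, and under 150 bp at the other 167. Over the whole list 38.8% of the 986 irregular distances were over 180 bp. At 146 run ends the outer distance missed the allowed range by no more than 10 bp. At the 112 ends with an outer distance over 220 bp the median H2A.Z percentile was 94.4 (92.7 to 95.6) and 72 of 108 matched ends were in the top 10%. At the 167 ends with a distance under 150 bp the median was 41.9 (33.6 to 48.2) and 7 of 131 were in the top 10%. Total percentiles ran the same way, with medians of 84.4 (72.8 to 90.7) and 39.4 (35.6 to 44.4). A wide distance carried high H2A.Z scores without an array as well. The 192 rows beside a distance over 220 bp that were not run ends had a median H2A.Z percentile of 82.0 (75.7 to 86.1). Their share in the H2A.Z top 10% was smaller, with 51 of 159, or 32.1% (25.3 to 39.7%), against 66.7% (57.3 to 74.9%) of the run ends. These sets were not matched for total score or for the width of the distance, and the cause of the difference was not tested.

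Counted inward from an outer distance over 220 bp, the median H2A.Z percentile was lower at each further place. There were 61 such ends in runs of 3 or more members, and every place below was counted from the same ends. In a run of 3, the third member is also the outermost of the other side. A run with such a distance outside both ends was counted from either end, so some nucleosomes entered more than once. The intervals treat these as separate positions. The median H2A.Z percentile was 96.1 at the run end (93.4 to 97.3), 77.6 at the first member (69.5 to 80.8), 63.3 at the second (52.4 to 68.3) and 53.4 at the third (42.3 to 58.1), with intervals that overlap only between the second and the third. Partners in the top 10% numbered 45 of 60, 5 of 61, 0 of 60 and 0 of 57 at these places, and the counts of 0 allow shares of up to 5.00% and 5.26%. Total percentiles went from 90.9 (83.6 to 93.9) to 79.9, 77.9 and 74.7 (66.8 to 84.0). In the paired-end lists the H2A.Z medians were 97.0, 79.1, 68.5 and 56.2.

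Ends with a close outer neighbour showed the opposite slope. At the 51 ends with an outer distance under 150 bp, the median H2A.Z percentile was 33.7 at the end (22.9 to 43.9), then 50.6, 55.6 and 57.5 (47.2 to 68.1) at the next members. Total percentiles were 38.5 (31.3 to 50.7), 55.9, 66.9 and 70.6 (64.9 to 77.3). At 42 ends with an intermediate outer distance, the intervals of all places overlapped in both libraries. In the 66 runs of 3 or more members with both ends matched, the end beside the longer outer distance had the higher H2A.Z percentile in 49, or 74.2% (62.6 to 83.3%), with medians of 94.2 and 42.9. The total percentile was higher at that end in 59 of 77 runs, or 76.6% (66.0 to 84.7%), with medians of 83.6 and 55.7.

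**Figure D4:**
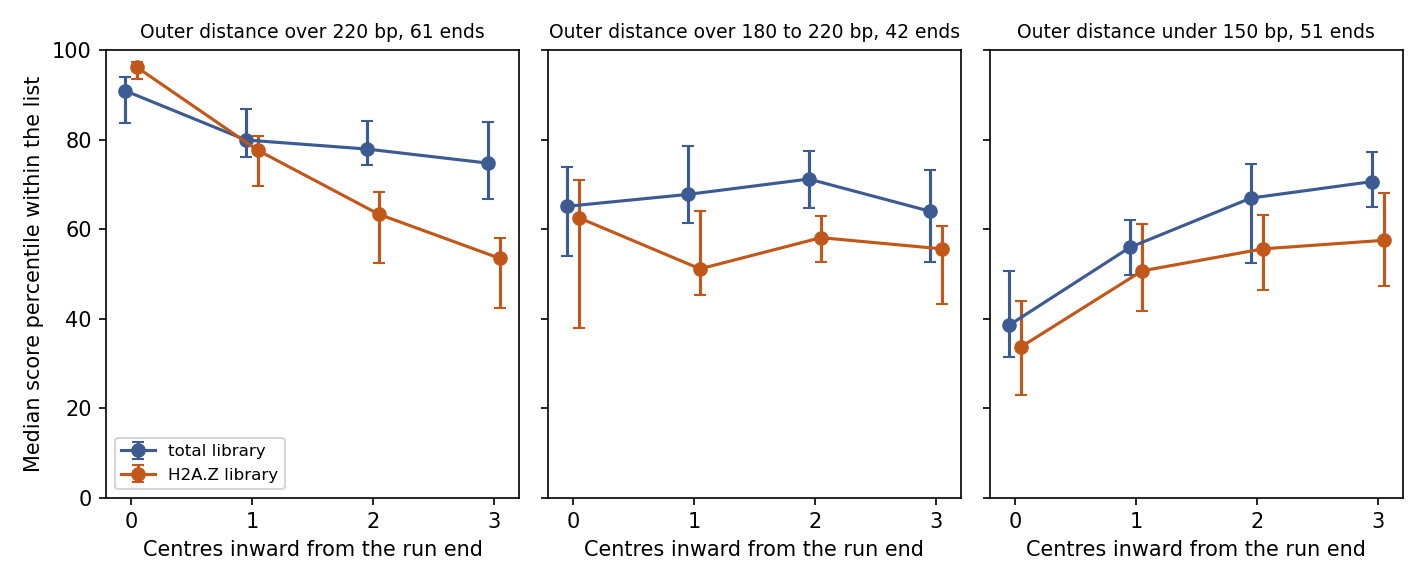
Median score percentile within each single-end list (vertical axes) at the run end, place 0, and at the first 3 members inward (horizontal axes), for runs of 3 or more members split by the distance outside that end. Bars are 95% order-statistic intervals over positions. Beside an outer distance over 220 bp the H2A.Z medians go down from 96.1 to 53.4, and beside one under 150 bp they go up from 33.7 to 57.5.

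The longest run, of 11 members, had centres from 192166 to 193839 and its ends at 191993 and 194014, with a mean distance of 168.4 bp. Its 13 centres including the ends had total percentiles, in order, of 79.7, 64.0, 84.5, 78.2, 49.3, 86.5, 92.3, 0.0532, 74.1, 73.8, 71.3, 78.3 and 28.5. The low value belongs to the centre at 193161, which ranked 1880 of 1881, had a standard error of 13.1 bp and no H2A.Z centre within 20 bp. H2A.Z percentiles of the other centres were 68.6, 50.8, 52.9, 59.96, 41.3, 79.8 and 99.1 before it and 93.8, 63.5, 72.0, 67.1 and 25.9 after it. The neighbours of the weak centre, at 192989 and 193325, thus ranked 17 and 116 of 1859 in the H2A.Z list, and they are the only inner members of any run with a partner in the H2A.Z top 10%. They lay 336 bp apart in the total list and their partners 343 bp apart in the H2A.Z list. The total paired-end list had 0 centres between them (more than 50 bp from both), and each H2A.Z list had 1, ranked 1844 of 1859 and 2257 of 2264. The run keeps its 11 members only with that weak centre, and in the upper 75% of scores the longest run had 9 members.

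**Figure D5:**
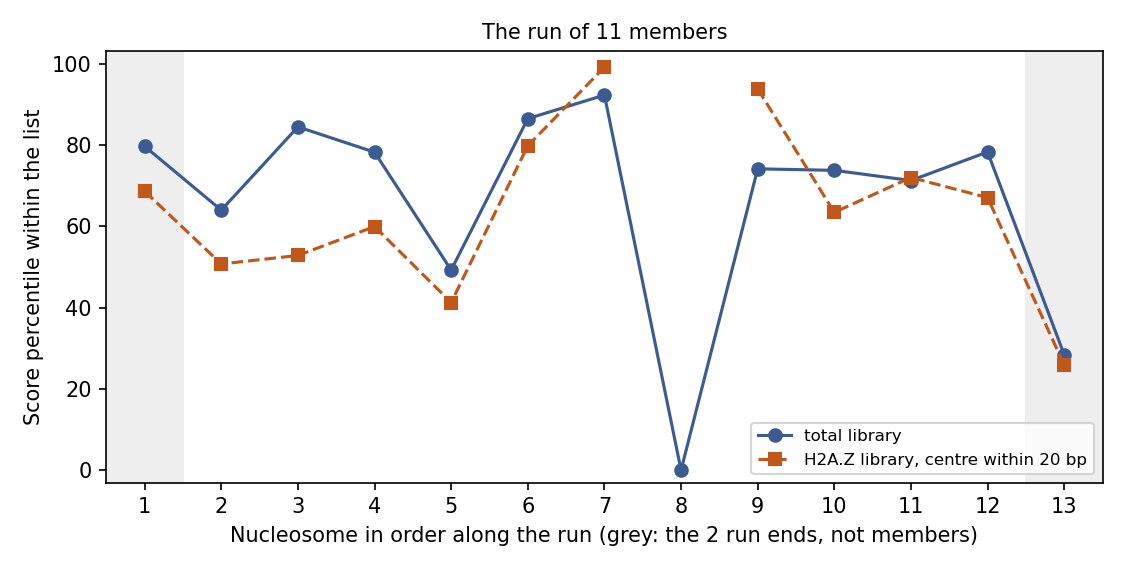
Score percentile within the total and the H2A.Z single-end list (vertical axis) of the 13 centres of the longest array in order (horizontal axis), the first and the last being the run ends. The eighth centre has a total percentile of 0.0532 and no H2A.Z partner, and its neighbours have H2A.Z percentiles of 99.1 and 93.8.

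The second run, of 9 members, had centres from 267340 to 268660 and was asymmetric. Its left end, beside a distance of 259 bp, ranked 38 in the H2A.Z list, and its right end, beside 141.4 bp, ranked 1420. Its members had H2A.Z percentiles from 10.4 to 69.8 with a median of 41.6, and total percentiles from 34.5 to 98.6. The third, of 8 members from 160848 to 162020, had its strong end on the right, with H2A.Z rank 26 beside a distance of 181.7 bp.

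The other named runs were 2 of the 3 runs of 7 members, those whose distances deviated least from their run mean. The run from 218793 to 219756 had the shortest repeat of the 5, with a mean distance of 161.3 bp, and low total scores, with a median percentile of 25.3. The run from 215187 to 216198 lay between outer distances of 261 and 314 bp. Both of its ends scored high in H2A.Z, with ranks 67 and 69, while its members had H2A.Z percentiles from 30.6 to 69.9 and total percentiles from 59.4 to 95.4.

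Arrays were unevenly placed along the chromosome. In windows of 10 kb the share of members went from 10.4 to 45.8% with a median of 27.0%. The richest were the windows from 210 to 220 kb, with 27 of 59 rows (exact interval 32.7 to 59.2%), from 60 to 70 kb, with 26 of 60 (30.6 to 56.8%), and from 40 to 50 kb and 240 to 250 kb, with 24 of 60 each. The poorest were those from 0 to 10 kb, with 7 of 67 (4.30 to 20.3%), from 290 to 300 kb, with 7 of 66, and from 10 to 20 kb, with 7 of 49. The interval excluded the overall share in 7 of 32 windows. Members made up 12.1% of rows in the first 20 kb (7.33 to 19.2%) and 15.4% in the last 20 kb (10.2 to 22.6%), against 29.4% between (27.2 to 31.6%). The gene table used here belongs to another assembly, so runs were not assigned to genes.

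The identifier that the authors gave to groups of positions also moved with regularity. Distances between rows of the same identifier were regular in 51.5% of 1369 cases, and between rows of different identifiers in 37.0% of 511. Of the 202 runs, 104 spanned more than 1 identifier. The part of this grouping in array membership was not tested.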

How the data were processed

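DNA of total and of H2A.Z-enriched mononucleosomes was sequenced from paired ends, per the labels' protocols. Each library has 2 deposited lists of predicted positions on chromosome III, which the file names mark as SE (single-end) and PE (paired-end). PING is named in the series title, and BWA, SAMtools and sacCer2 in the submitters' processing notes. No version, filter or setting is given in the sources used here. Columns named mu (centre), delta (peak distance), sigmaSq (read variance) and se per the file headers hold no stated unit and were read as bp or squared bp, and a forward SD is the square root of the forward variance; the mixing weight is deposited as a fraction from 0 to 1. The authors' score has no stated scale and was used only as a rank within a list.

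Members, runs and matches (nearest centre within 20 bp) were computed with pandas 2.3.3, numpy 2.4.6 and scipy 1.17.1 under Python 3.11.15, and drawn with matplotlib 3.10.9. Run finding and matching were tested on simulated data. Shares carry Wilson intervals (exact for windows) and medians order-statistic intervals. Bounds of a difference of medians join the far ends of both intervals. The members and lists were chosen with earlier results of these data known. Named regions are the 5 runs with the most members (ties by the smaller mean absolute deviation of distances from the run mean, which left out 1 of the 3 runs of 7 members), all centres of the first, the 5 highest-scoring members, the rows nearest the bounds, and the 3 richest and poorest windows of 10 kb, with a tie at the third place. The weak centre in the longest run and the named run ends beside members with top H2A.Z scores were singled out after their values were seen. The outer-distance classes, the runs of 5 or more members as a profile and the top 10% of scores were also chosen after seeing the data. Alternatives covered the spacing range, score, neighbours within 100 bp, match distance and list type.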

Additional observations from a re-analysis of the deposited data

Results flagged for a closer look

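The contrast between inner and outermost members went opposite ways in the libraries. In runs of 3 or more members, the median score percentile of inner minus outermost members was 5.213 in total chromatin and -8.019 in H2A.Z. With 1 library each the difference was not tested, and the bounds of both values include 0. Run by run, 38 of 77 runs had the higher mean total percentile inside and 39 the lower.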

How the results depend on the processing

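Of 65 alternatives to 8 results, 43 stayed within the bounds of the reported value and 22 moved outside, and 0 of the differences whose bounds lay off 0 changed sign. The lower H2A.Z percentile of inner members was found in 10 of 10 alternatives (-17.7 to -7.70), with runs found in the H2A.Z list among them (-9.82, chosen after seeing the data). Bounds lay off 0 only for distances of 140 to 190 bp and in the upper 75% of scores. Alternatives that change only the matching use the same runs, so the 10 are not independent. The total contrast of inner and outermost members kept its sign in 5 of 7 (-3.91 to 5.65). The share of members was 43.2% for distances of 140 to 190 bp, 15.9% for the reported range narrowed by 5 bp at either bound, 14.7% in paired-end lists, 29.5% without rows within 100 bp of a higher-scoring one, and 32.9% among rows whose neighbours carry the same identifier. The forward SD of members minus others was -2.948 bp for 140 to 190 bp and -0.6292 bp in paired-end lists, with bounds of -1.63 and 0.452 bp. Their surplus in total percentile was 22.73 in the upper 75% of scores and 15.27 against rows with 1 regular distance. Their surplus in matched share was 18.22 and 11.03 percentage points for the wider and narrower spacing, 8.849 in the upper 75%, 25.47 in paired-end lists, 21.24 and 5.223 for matches within 10 and 50 bp, 6.234 against rows with 1 regular distance and 21.29 within identifiers. The H2A.Z percentile of members minus others, 3.687 as reported, had the same sign in 6 of 10: it was -8.938 in the upper 75%, 10.21 in paired-end lists, -2.745 for matches within 10 bp, -3.229 against rows with 1 regular distance and 11.68 within identifiers. The cause of these shifts was not tested. No paired analysis was possible because each group has 1 library. Depth is unknown, so a missing match need not be a missing nucleosome.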
